A study of Callithrix jacchus with 39 samples.

Results

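Enhancer-like regions seen in one library only are stretches of the marmoset genome where H3K27ac was called in a single tissue sample and H3K4me3 in none. All peaks of the 16 H3K27ac libraries were merged where they overlapped by at least 1 bp, which gave 139484 regions. A region was kept when exactly 1 of the 16 libraries held a peak there and no peak of the 15 H3K4me3 libraries overlapped it. This left 61068 regions, called one-library regions here, which are 43.8% of all merged regions and 55.3% of the 110360 merged regions without H3K4me3. Because the rule used presence in the lists, how many there are is a description and not a test.

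Acetylation of histone H3 at lysine 27 is laid down by the coactivators CBP and p300 and marks active enhancers as well as active promoters. Trimethylation at lysine 4 is concentrated at the starts of transcribed genes, so acetylation without it is widely used to pick out distal enhancers. Enhancers are more tissue-specific than promoters, tend to lie in clusters around the genes they serve, and are the class of regulatory element that changes fastest between species. The title of the series names young enhancers and differences between individuals, and a region found in 1 sample alone is the extreme case of a region that differs between samples.

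ChIP-seq of both marks was done in stomach, colon, pancreas, liver, kidney, spleen, heart and skeletal muscle of Callithrix jacchus, the common marmoset, a New World primate. Each tissue had 2 numbered H3K27ac libraries (antibody ab4729) and 2 numbered H3K4me3 libraries (ab8580), except heart with 1 for H3K4me3, and the labels give tissue, antibody and number but not the animal, its age or its sex. The 8 input samples were not analysed here. H3K27ac lists held 24590 to 51554 peaks and H3K4me3 lists 16386 to 24424 peaks, read depth is unknown, and a missing peak means only that none was called. In bulk tissue, fewer cells with a mark and less of the mark per cell cannot be told apart. Since nothing says that replicates came from different animals, p-values measure the spread over tissues and may partly be technical. No gene annotation of the build of the files (calJac3) was used here, so tissue labels were not checked against marker genes and no region was assigned to a gene.

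Every tissue contributed one-library regions in large number, with liver the highest at 12098 and stomach the lowest at 3434. Skeletal muscle had 9885, spleen 9417, colon 9035, pancreas 7755, kidney 5648 and heart 3796, and the mean over tissues was 7634 ± 3081 (SD, n = 8). For comparison, two-replicate regions are used throughout: regions with a peak in both libraries of 1 tissue, in none of the other 14 H3K27ac libraries, and without H3K4me3. There were 21439 of these, and the number of one-library regions for each of them was lowest in liver (1.90), skeletal muscle (2.06) and colon (2.28). It was 3.79 for stomach, 3.82 for kidney, 4.67 for pancreas and 4.75 for spleen, and highest for heart, at 13.04. Heart stood apart because it had 291 two-replicate regions, against 6358 in liver, 4799 in skeletal muscle and 3962 in colon.

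The libraries of a tissue were often unequal. Colon replicate 1 held 7528 one-library regions and replicate 2 held 1507, which is 18.6% and 4.28% of their peaks. Kidney had 4292 and 1356, heart 2754 and 1042, liver 4730 and 7368, and spleen 5862 and 3555 in replicates 1 and 2. The pairs were closest in skeletal muscle (5491 and 4394) and pancreas (4329 and 3426), and stomach had the fewest in replicate 1 (1296 and 2138). In 8 of 8 tissues the library with the longer list was the one with more one-library regions, although the lists of a tissue differed by 1.03 to 1.17-fold in length and the counts by 1.25 to 5.0-fold. With only the 20000 strongest peaks of every list, 27272 one-library regions were left, 58.9% of the regions without H3K4me3. Colon then had 2478 and 874, kidney 2563 and 626, and heart 2126 and 987, so replicate 1 was still the higher. The order of the replicates changed in liver (1807 and 1195), pancreas (1307 and 1381) and spleen (2608 and 2711). Stomach had 716 and 1186, so there replicate 2 was still the higher. The inequality of colon, kidney, heart and stomach was thus present at equal list length, and that of pancreas, skeletal muscle and spleen was small there.

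**Figure D1:**
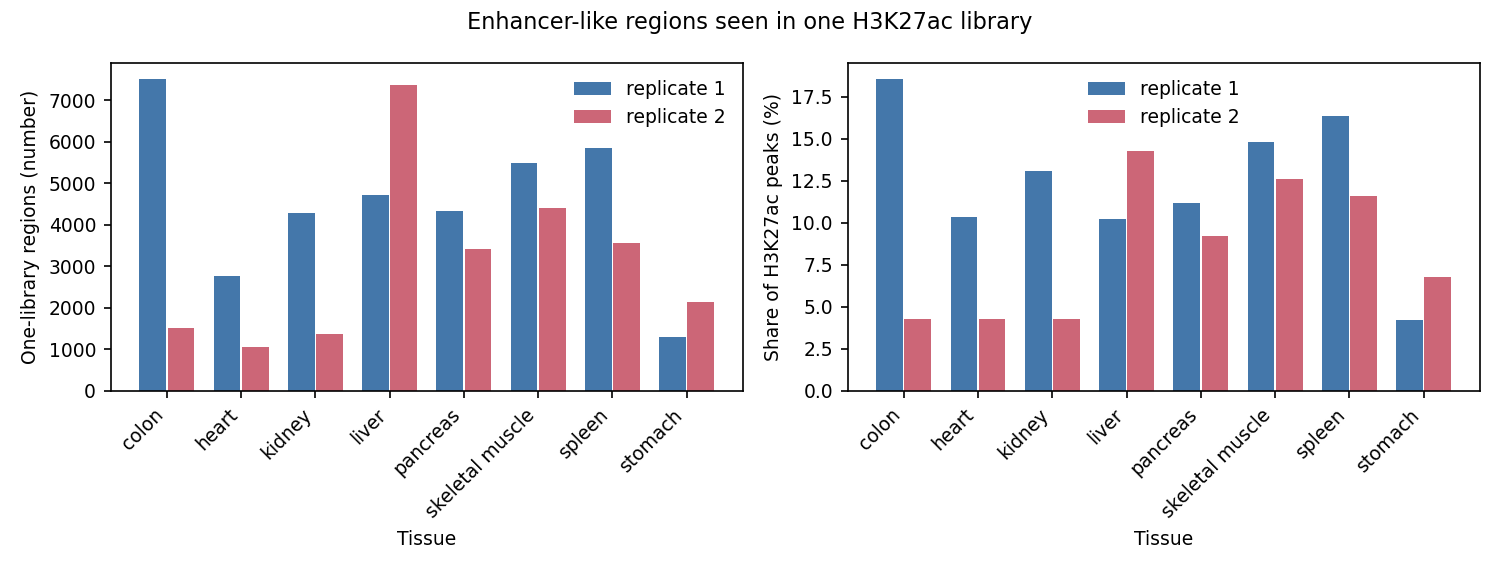
Number of one-library regions in each H3K27ac library (left) and their share of that library's peaks in percent (right), by tissue and replicate. Colon replicate 1 (7528 regions, 18.6%) and liver replicate 2 (7368 regions, 14.3%) are the highest by number, and heart replicate 2 (1042 regions) is the lowest.

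One-library regions were weak and narrow peaks. Length and strength are not independent of presence in other lists, which chose the regions, so they are described without a test. The median over their lengths was 374 ± 16 bp, while peaks of the same libraries in two-replicate regions had 511 ± 56.6 bp (SD, n = 8), and they were shorter in 16 of 16 libraries. The shortest peak in any list was 300 bp, and 12.9 ± 2.94% of one-library regions had exactly this length (SD, n = 8). The middle of the distribution was tight, with quartiles of 322 bp and 488 bp over all 61068, but the longest reached 3344 bp (colon replicate 1) and 1108 regions (1.81%) were longer than 1 kb. All together they covered 26.8 Mb, 21.3% of the length of all merged H3K27ac regions. Their median fold enrichment, as set by the authors' peak caller, was 4.85 ± 0.30, against 5.39 ± 0.52 in two-replicate regions, and their median −log10 q was 7.95 ± 0.66 against 10.6 ± 2.03 (SD, n = 8).

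Within each library's own list, one-library regions thinned out steadily from the weakest to the strongest peaks. They made up 24.9 ± 6.30% of the weakest decile by −log10 p, 11.1 ± 3.77% of the fifth and 0.245 ± 0.217% of the ninth (SD, n = 8). In the strongest decile there were 4 of the 61068, 3 in kidney replicate 1 and 1 in spleen replicate 2. In the other 14 libraries every peak of the strongest decile lay in a merged region shared with another library or with H3K4me3.

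**Figure D2:**
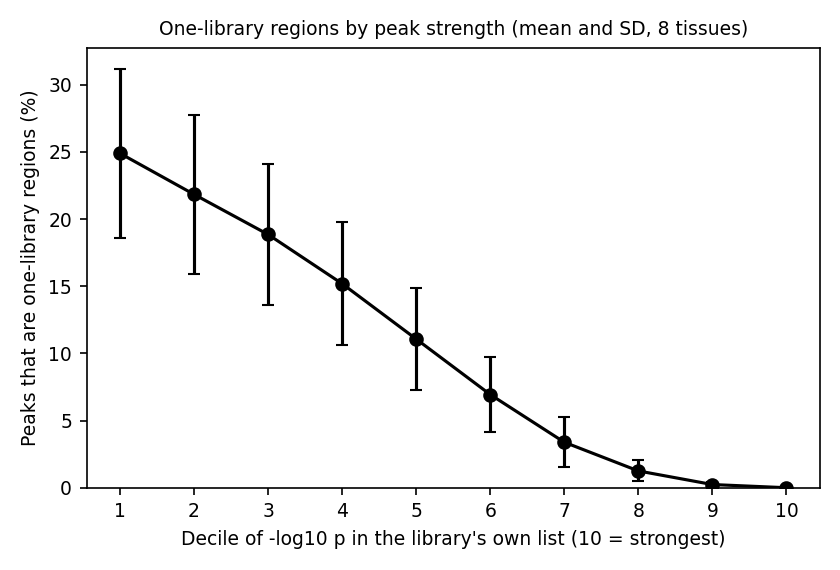
Percent of H3K27ac peaks that are one-library regions (y axis) by decile of −log10 p within the library's own list (x axis, 10 is the strongest). Points are means and bars SD over 8 tissues, each the mean of its 2 libraries, and the share falls from 24.9% in the weakest decile to 0.245% in decile 9.

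The borders of the rule were close for a part of them. Just inside, 3535 one-library regions (5.79%) lay within 100 bp of a peak of another H3K27ac library and 308 (0.504%) within 100 bp of an H3K4me3 peak. Just outside, 3727 regions had a peak in 1 H3K27ac library but overlapped H3K4me3, and 28175 regions without H3K4me3 had peaks in exactly 2 libraries. Of 25323 such regions made of 2 peaks, 970 (3.83%) shared under 100 bp. The 2 libraries came from the same tissue in 21439 of the 28175 regions (76.1%), although same-tissue pairs are 8 of the 120 pairs of libraries. On average a same-tissue pair shared 2680 such regions and a pair from different tissues 60.1.

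One-library regions often lay close to a peak of another H3K27ac library. These distances were not computed for other classes of region, so whether they set this class apart was not tested. The median distance to the nearest peak of any other H3K27ac library was 1.91 ± 0.39 kb (SD, n = 8), from 1472 bp in stomach to 2530 bp in kidney. In 40.3 ± 3.20% of them that peak was within 1 kb, and in 2.36 ± 0.77% it was more than 100 kb away (SD, n = 8). Joining peaks within 1 kb before counting left 31055 one-library regions, so the total depends on how close neighbours are treated.

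The first question the design allows is how far one-library regions lay from the stable map of their own tissue. Reproducible regions here are peaks of a tissue that its other replicate overlaps, merged, with or without H3K4me3, and a two-replicate region was not counted as its own neighbour. One-library regions lay farther from the nearest reproducible region than two-replicate regions did, in 16 of 16 libraries. Their median distances in replicates 1 and 2 were 7.34 kb and 4.49 kb in colon, 44.5 kb and 49.0 kb in heart, 25.2 kb and 16.8 kb in kidney, and 3.51 kb and 8.03 kb in liver. In pancreas they were 29.5 kb and 10.3 kb, in skeletal muscle 5.61 kb and 6.72 kb, in spleen 21.8 kb and 10.2 kb, and in stomach 17.7 kb and 10.6 kb. The order of tissues was that of two-replicate regions in outline: heart was the most distant (19.2 kb) and liver (1.82 kb), skeletal muscle (1.94 kb) and colon (2.44 kb) were the closest in both classes. Over tissues the medians were 17 ± 13.5 kb and 5.39 ± 5.73 kb (SD, n = 8).

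Within a tissue the one-library median was 3.19-fold longer (log2 ratio 1.67 ± 0.33, SD, n = 8), and this held in 8 of 8 tissues. Exact permutation of the signs of the 8 tissue values, two-sided like all such tests here, gave p = 0.00781, and 0.0182 after Benjamini-Hochberg adjustment over 7 tests. The ratio was largest in kidney (4.30-fold) and stomach (4.11-fold) and smallest in colon (2.35-fold). With 8 tissues this test cannot give less than 0.00781. Both classes and the reproducible regions were defined from the same lists, and two-replicate regions are themselves reproducible. A part of the difference can therefore come from these definitions, and how large a part was not tested. Between peaks of like strength, compared within 10 strata of the rank in their own list, the log2 ratio was 1.42 (exact permutation test, n = 8, adjusted p = 0.0182). It was 1.0 with the 20000 strongest peaks of each list and 0.38 with peaks merged within 1 kb, where neighbours at short range are removed by construction.

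The shares by range of distance, which were not tested, were as follows. Of one-library regions 21.1 ± 6.85% lay within 1 kb of a reproducible region, against 36 ± 7.27% of two-replicate regions (SD, n = 8). The shares between 1 and 10 kb were 24.8 ± 4.45% and 23.8 ± 3.62%. Between 10 and 100 kb lay 36.5 ± 4.01% of one-library and 28.7 ± 3.87% of two-replicate regions. Beyond 100 kb the shares were 17.5 ± 7.33% and 11.5 ± 6.64% (SD, n = 8). Two-replicate regions are themselves reproducible, so the comparison sets a class against its own kind.

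Distance to promoters, read from H3K4me3 of the same tissue, differed less between these classes. The median distance of one-library regions was 41.0 ± 9.79 kb and that of two-replicate regions 37.2 ± 10.5 kb (SD, n = 8). The ratio was 1.1-fold (log2 0.14 ± 0.10, SD, n = 8) and above 1 in 7 of 8 tissues (exact permutation p = 0.0156, 0.0182 when adjusted). Pancreas was the exception, at 0.965-fold. Against all reproducible enhancer-like regions, in place of those of 1 tissue alone, the log2 ratio was 0.46, and that for distance to reproducible regions was 1.27 (exact permutation test, n = 8, adjusted p = 0.0137 for both). Only 4.08 ± 0.95% of one-library and 4.54 ± 0.72% of two-replicate regions lay within 1 kb of H3K4me3, and 26.0 ± 4.97% and 24.2 ± 5.61% lay beyond 100 kb (SD, n = 8). The call was lost without the H3K27ac library of colon replicate 2 (exact permutation test, n = 7, log2 0.14, adjusted p = 0.0656) and without that of liver replicate 2 (0.13, adjusted p = 0.0547).

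The libraries of a tissue did not place their one-library regions alike with respect to promoters. In spleen the median distance to H3K4me3 was 57.2 kb in replicate 1 and 31.4 kb in replicate 2, on either side of the 39.1 kb of spleen two-replicate regions. In pancreas it was 55.0 kb and 40.6 kb, around 48.9 kb, and in liver 23.4 kb and 32.5 kb, around 24.0 kb. In heart the libraries were close, at 56.8 kb and 57.0 kb, with 1 H3K4me3 library behind both. In every tissue but heart and skeletal muscle, the replicates differed by more than their mean differed from the two-replicate regions.

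**Figure D3:**
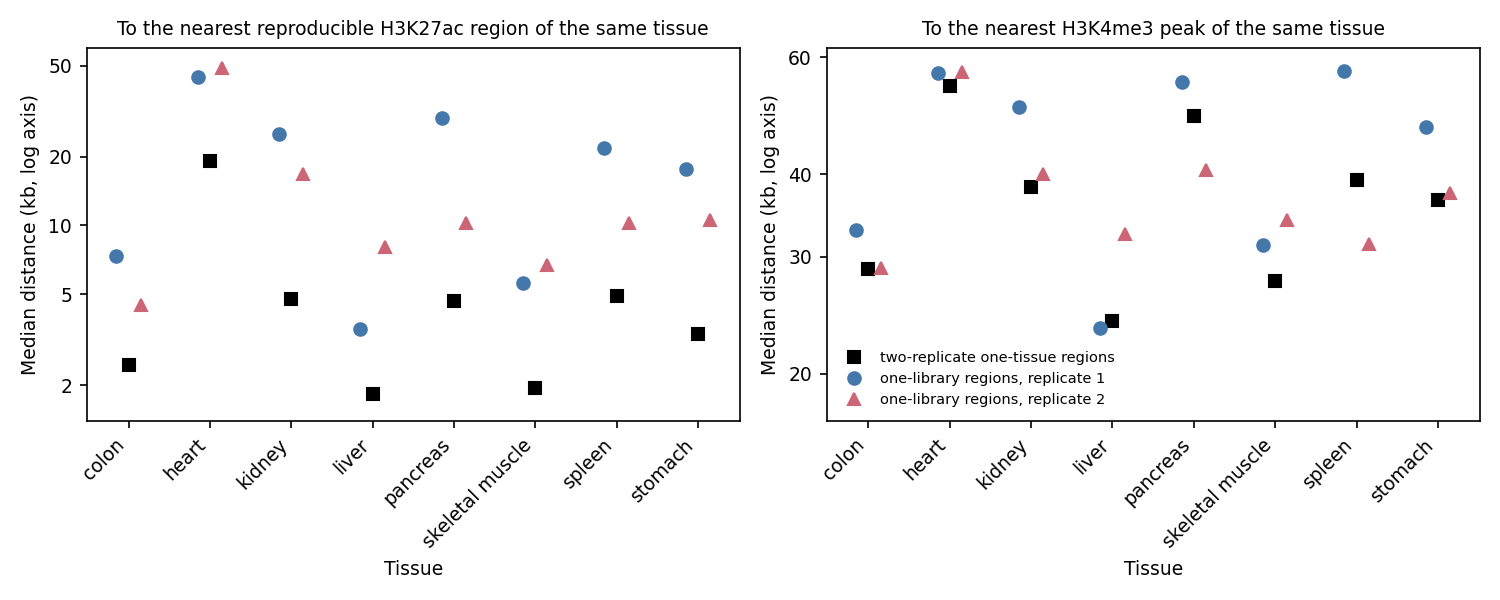
Median distance in kb (log axes) from one-library regions (circles, replicate 1; triangles, replicate 2) and two-replicate one-tissue regions (squares) to the nearest reproducible H3K27ac region (left) and the nearest H3K4me3 peak (right) of the same tissue. On the left every circle and triangle is above its square; on the right circles and triangles fall on both sides of it in pancreas, spleen and liver.

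One-library regions lay near the two-replicate regions of the tissue they came from more often than those of other tissues did. For each tissue, its two-replicate regions were taken as targets. The percent of one-library regions within 10 kb of them was computed for its own libraries and for the libraries of the 7 other tissues. Both percents were thus set against the same targets. By definition these targets hold a peak in both own libraries and in no library of another tissue. A part of the difference can therefore come from the choice of targets, and how large a part was not tested. Own-tissue regions were near in 20.04 ± 9.75% of cases and regions of other tissues in 2.01 ± 1.42% (SD, n = 8). Own tissue exceeded other tissues by 18.03 ± 8.44 percentage points and did so for 8 of 8 targets (exact permutation p = 0.00781, 0.0182 when adjusted). Each library enters all 8 differences, as own or as other tissue, so these are not independent of each other. For 8 of 8 targets both own libraries exceeded every one of the 14 libraries of other tissues.

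The own-tissue percent was highest for skeletal muscle, liver and colon, the tissues with the most targets, and its order over tissues follows the number of targets in part. Of skeletal muscle one-library regions 33.0% and 33.1% in replicates 1 and 2 were near skeletal muscle targets, and the libraries of other tissues reached 2.20% to 6.72%. For liver targets the own libraries lay between 26.8% and 33.7% and the others between 3.98% and 5.12%, and for colon between 27.3% and 31.3% against 2.35% to 4.86%. Kidney (15.8% and 16.7%), spleen (13.9% and 17.4%), stomach (14% and 16.4%) and pancreas (9.29% and 22.3%) followed, each against at most 3.003% in a library of another tissue. Heart, with 291 targets, had 4.28% and 5.47%, against at most 0.885%. As a ratio of own to other tissues the order was another: stomach had 18.5, kidney 14.7 and heart 14.3. Pancreas had 11.5, colon 10.04, skeletal muscle 9.62, spleen 9.26 and liver 6.88. The ratio was highest in the tissues with the fewest targets and lowest in liver, which had the most. It is therefore not free of the number of targets either. The difference in points was 11.6 with the 20000 strongest peaks and 7.15 with merging within 1 kb, both with an adjusted p under the threshold of 0.05 (exact permutation test, n = 8).

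Among the other tissues, related organs came first for some targets. Near skeletal muscle targets the highest of the 7 other tissues was heart, which shares striated muscle with it: 4.50% and 6.72% of heart one-library regions in replicates 1 and 2, above the 3.78% of colon replicate 2, the highest of the other 12 libraries. Near colon targets it was stomach (4.86% and 3.88%), with kidney replicate 2 close behind (3.76%). Near stomach targets it was colon (1.2% and 1.06%), but pancreas replicate 2 (1.11%) was above colon replicate 2. Colon and stomach share gut epithelium and smooth muscle. For pancreas targets stomach also came first (2.39% and 1.87%). For spleen targets pancreas came first, through replicate 1 (3.003% and 1.02%). For heart targets kidney came first, through replicate 2 (0.256% and 0.885%), then spleen and skeletal muscle. For kidney and liver targets it was spleen. These orders are descriptions, and neighbours in them were not tested.

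**Figure D4:**
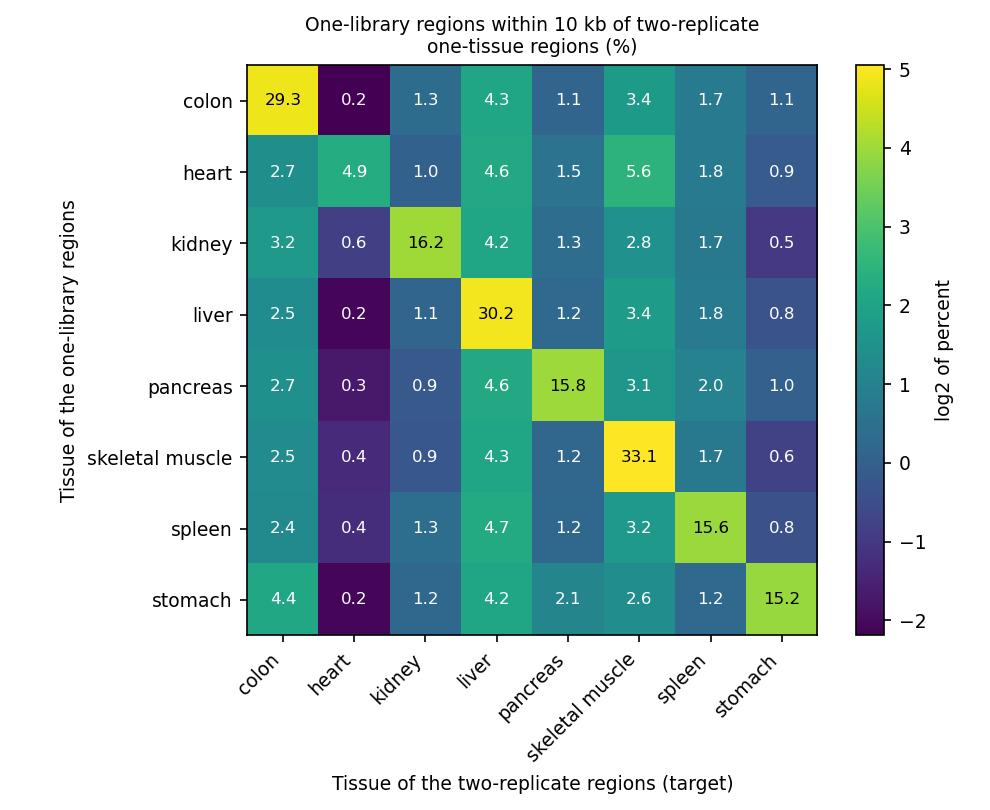
Percent of one-library regions (rows, by tissue, mean of 2 libraries) within 10 kb of two-replicate one-tissue regions (columns, by tissue), coloured by the log2 of the percent. The highest value of each column is on the diagonal, from 4.9% for heart to 33.1% for skeletal muscle.

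The one-library regions of the 2 libraries of a tissue were also near each other, although by the rule none of them overlapped. Taking each library's one-library regions as targets, 17 ± 4.01% of the partner replicate's one-library regions lay within 10 kb, against 3.6 ± 1.18% of those from other tissues (SD, n = 8). The partner was ahead by 13.4 ± 3.96 percentage points, with the same sign in 8 of 8 tissues (exact permutation p = 0.00781, 0.0182 when adjusted). Here too each library enters all 8 differences. In 16 of 16 target libraries the partner exceeded all 14 libraries of other tissues. Skeletal muscle had the largest difference, 20.4 points, and spleen the smallest, 7.49 points. Near the 7528 regions of colon replicate 1 lay 32.7% of those of colon replicate 2, and the next highest library had 10.1%. In the opposite direction it was 8.36% against 3.6%, since the 1507 targets of colon replicate 2 are fewer. The difference was 8.49 points with the 20000 strongest peaks and 3.97 points with merging within 1 kb, and adjusted p was under 0.05 with each (exact permutation test, n = 8).

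Across chromosomes the share of one-library regions among all regions without H3K4me3 was even. It lay between 53.0% (chromosome 10) and 58.3% (chromosome 8) on all numbered chromosomes but chromosome 22, where 1113 of 2357 were one-library regions (47.2%). The highest share was on chromosome X, 1310 of 2045 (64.1%), and on chromosome Y it was 72 of 120 (60%). Contigs that are not placed in the chromosomes held 1456 one-library regions of 2645 (55.0%). The high share on X depends on this denominator. Among all merged regions, with or without H3K4me3, the share was 44.8% on X, 43.8% in the whole series and 48.5% on chromosome 17.

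Chromosome X was more frequent among one-library regions than among two-replicate regions, though peaks of like strength were not compared for this. Of regions on assembled chromosomes 2.08 ± 0.29% of one-library and 1.59 ± 0.35% of two-replicate regions lay on X (SD, n = 8). One-library regions were ahead by 0.49 ± 0.33 percentage points, in 7 of 8 tissues and 13 of 16 libraries (exact permutation p = 0.0156, 0.0182 when adjusted). Kidney had the largest difference, 2.0% and 2.35% in its libraries against 1.1%. Colon was split, with 3.02% in replicate 1 and 1.44% in replicate 2 around 1.67%, and spleen had 2.16% and 1.96% around 2.12%. The call was lost without the H3K27ac libraries of colon replicate 2 (0.50 points), liver replicate 1 (0.46) or pancreas replicate 1 (0.46), each with an adjusted p of 0.0547 (exact permutation test, n = 7).

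**Figure D5:**
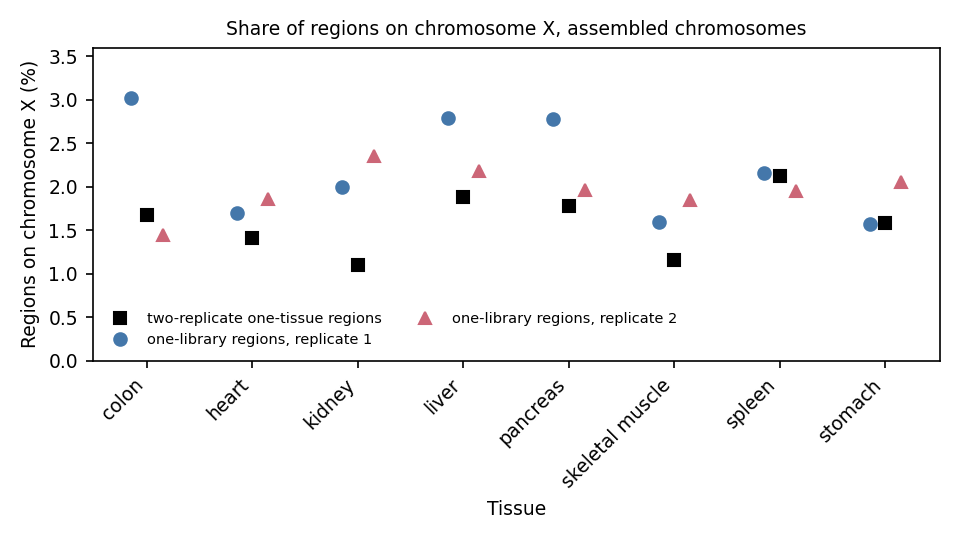
Percent of regions on chromosome X among those on assembled chromosomes, for one-library regions of each library (circles, replicate 1; triangles, replicate 2) and two-replicate one-tissue regions (squares). Points lie above the square of their tissue in 13 of 16 libraries, with colon replicate 2, spleen replicate 2 and stomach replicate 1 below it.

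The share of regions off the assembled chromosomes did not pass the test. It was 2.53 ± 0.74% for one-library and 2.25 ± 0.44% for two-replicate regions, a difference of 0.29 ± 1.104 points, above 0 in 5 of 8 tissues (SD, n = 8; exact permutation p = 0.547, 0.547 when adjusted). Kidney replicate 2 had the highest share, 6.05% of its 1356 one-library regions. Without either kidney H3K27ac library the difference was below 0, at -0.033 and -0.014 points without replicates 1 and 2.

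One-library regions near each other across tissues were compared by replicate number, to see whether a shared number went with shared positions. For each of the 28 pairs of tissues, the pairs of one-library regions within 10 kb were counted between libraries of the same number and of different numbers, and the ratio of products cancels the size of each library. Summed over tissue pairs there were 8971 such pairs with the same number and 8163 with different numbers. Unlike the ratio, these sums are not free of library size, since replicate 1 had more one-library regions in 6 of 8 tissues. The log2 ratio was 0.21 ± 0.37 (SD over 28 tissue pairs) and above 0 in 21 of 28 (exact permutation test over all exchanges of numbers within tissues, p = 0.0156, 0.0182 when adjusted). It ranged from -0.50 for liver with spleen to 1.09 for spleen with stomach. This result was not stable: it was 0.050 within 50 kb (adjusted p = 0.246), 0.081 with merging within 1 kb (adjusted p = 0.68) and 0.11 without colon H3K27ac replicate 1 (adjusted p = 0.255; exact permutation tests over 8, 8 and 7 tissues). The call was also lost without the H3K27ac libraries of colon replicate 2, skeletal muscle replicate 2, or either replicate of kidney or stomach.

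The strongest one-library region of each library shows what the upper end of the class looked like. These were chosen by the highest deposited −log10 q, which ran from 14.9 to 96.1, with fold enrichments of 6.35 to 15.9 and lengths of 463 to 2376 bp. All 16 lay on assembled chromosomes, 5 lay within 1 kb of a peak of another H3K27ac library and 7 within 10 kb of a reproducible region of their tissue. Positions are on calJac3, counted from 1, and genes at these positions were not looked up.

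In liver replicate 2 the region at chr1:185638862-185640248 had a −log10 q of 96.1 and a fold enrichment of 15.7, the highest −log10 q of the class, and a peak of another library lay 0.584 kb away. The liver replicate 1 region at chr11:89287394-89288958 (1565 bp, 15.4-fold, −log10 q 48.5) was the most isolated of the 16. No peak of another H3K27ac library lay within 62.1 kb of it, and the nearest reproducible liver region was 528 kb away. In colon replicate 1 the region at chr1:147605979-147608354 was the longest of the 16 (2376 bp, −log10 q 40.7), 5.29 kb from another library's peak and 4.59 kb from H3K4me3. The colon replicate 2 region at chr3:185625671-185626257 (587 bp, −log10 q 35.6) lay 1.86 kb from colon H3K4me3, yet 27.1 kb from any other H3K27ac list. By −log10 p these 4 regions ranked at the 86.3 to 89.9 percentile of their own lists.

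Pancreas replicate 1 had its strongest region at chr3:185111279-185112028 (15.9-fold, the highest fold of the 16, −log10 q 37.3), and replicate 2 at chr12:14843216-14843972 (−log10 q 35.8), which lay 0.351 kb from a reproducible pancreas region. In spleen they were at chr1:78190446-78190937 (−log10 q 38.02) and chr13:35472682-35473993 (−log10 q 36.4), the latter in the top decile of its list. In kidney replicate 1 the region at chr11:59955509-59956812 was also in the top decile (1304 bp, −log10 q 29.6, 87.4 kb from a reproducible region). Kidney replicate 2 had chr9:11961062-11961845 (−log10 q 25.9), 1.43 kb from kidney H3K4me3. None of these 6 regions reached the −log10 q of the leading regions of liver or of colon replicate 1.

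In the striated muscles and stomach the leading regions had −log10 q values of 14.9 to 26.2. Skeletal muscle had chr19:46097409-46098043 in replicate 1 (−log10 q 22.8) and chr3:83067862-83069752 in replicate 2 (1891 bp, −log10 q 26.2), both within 10 kb of a reproducible region. Heart had chr13:43394225-43394687 (−log10 q 22.7) and chr9:114366366-114366890 (−log10 q 14.9), each about as far from a reproducible heart region (8.57 kb and 7.88 kb). Stomach had chr8:27395846-27396341 (−log10 q 19.7) and chr12:110279964-110280837 (−log10 q 24.1), the latter 55 bp from a reproducible stomach region. With peaks merged within 1 kb, 8 of the 16 leading regions were still one-library regions.

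Most one-library regions stood alone, and some formed groups. When the regions of 1 library were joined within 12 kb, with no peak of any other library or of H3K4me3 between them, 76.8 ± 6.46% remained single (SD, n = 8), from 61.9% in colon replicate 1 to 90.4% in heart replicate 2. The largest groups of the libraries held 3 to 8 regions. Libraries with more one-library regions can form more groups, so these shares follow the counts in part.

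By covered length the largest colon group was at chr1:143885916-143893796, where 6 regions of replicate 1 covered 5.95 kb of 7.88 kb, 19.9 kb from any peak of another H3K27ac library. The largest skeletal muscle group, at chr2:10427420-10435956, held 8 regions of replicate 2 that covered 4.70 kb of 8.54 kb, 20.7 kb from another library's peak. In liver 6 regions of replicate 1 covered 5.33 kb at chr5:149076450-149092575, with the next library 43.5 kb away and a highest −log10 q of 46.5. These groups of colon, skeletal muscle and liver had no acetylation in any other list within 19.9 kb on either side.

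The largest kidney group was the most remote: 8 regions of replicate 1 at chr14:57598642-57619117 covered 3.96 kb of 20.5 kb, and the nearest reproducible kidney region was 1693 kb away. The largest spleen group, at chr6:122732886-122739305, lay the other way, with 8 regions of replicate 1 (4.76 kb) only 0.287 kb from a reproducible spleen region. Pancreas had 5 regions of replicate 1 at chr21:35117343-35129369 (3.70 kb) and stomach 4 regions of replicate 2 at chr3:6077315-6088191 (2.70 kb). Heart had the smallest, 4 regions of replicate 1 that covered 2.43 kb of 4.74 kb at chr4:153235619-153240358, 10.8 kb from heart H3K4me3. These groups were chosen for being seen in 1 library, so their absence elsewhere is part of the rule.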

How the data were processed

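Each ChIP library has 1 narrowPeak list, used as deposited. DNA libraries were made with a TruSeq kit, per the labels' protocols, and the submitters' processing notes list MACS2 2.1.1.20160309, bedtools 2.26, SAMtools 1.3.1 and Bowtie 1.1.2. The build, calJac3, was read from the peak names. Fold enrichment is a ratio that the authors' caller gave each peak. As deposited, −log10 p and −log10 q (lowest 5.09 and 3.04) served to rank peaks within a list. The use of the inputs was not given in the sources used here.

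Libraries were grouped by tissue, mark and number from their titles. Intervals were handled in Python 3.11.15 with numpy 2.4.6 and figures drawn with matplotlib 3.10.9. Distances are bases between edges. Library values were averaged per tissue, and 7 tests were adjusted together (Benjamini-Hochberg). The code was tested on simulated data. Text regions are the highest −log10 q of each library and the largest group of each tissue. The regions, measures and lists were chosen with earlier results of these data known. Alternatives were a −log10 q minimum of 5, the 20000 strongest peaks, 50% overlap, merging within 1 kb, assembled chromosomes, other near distances (5 and 50 kb), rank strata, another comparison class, summits, a block on replicate number, and dropping each of the 31 libraries in turn. No sequence is printed, since no genome of calJac3 was used here.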

Additional observations from a re-analysis of the deposited data

Results flagged for a closer look

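The percent of regions off the assembled chromosomes, one-library minus two-replicate, drew attention because both libraries of some tissues moved one way and both of others the opposite way. It was 1.0 points in colon and 2.47 in kidney, and -1.05 in heart, -0.34 in skeletal muscle and -0.71 in stomach. The difference between these tissues was not tested, and the mean over 8 tissues did not pass the test.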

How the results depend on the processing

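Distance to reproducible regions, nearness to own-tissue two-replicate regions and nearness to the partner replicate kept their direction and passed the threshold under all 40, 39 and 39 alternatives tried, with log2 ratios of 0.38 to 1.77 and differences of 7.15 to 20.4 and 3.97 to 17.9 points. Each alternative still drew its classes and targets from the same lists, so none tests what comes from the choice of targets. The alternatives counted include the replicate block. They also include leaving out H3K4me3 libraries, which enter these 3 measures only through the H3K4me3 overlap. The number of one-library regions was 27272 with the 20000 strongest peaks and 31055 with merging within 1 kb, and otherwise 59374 to 71483. The length difference of -138 bp was -202 bp with the 20000 strongest peaks. Replicates named here are H3K27ac libraries. The H3K4me3 distance ratio lay between 0.12 and 0.18 (log2) when 1 library was left out and lost its call without colon replicate 2 (0.14) and liver replicate 2 (0.13); it was 0.46 against all reproducible enhancer-like regions and 0.09 with merging within 1 kb, both past the threshold. The difference on chromosome X lay between 0.41 and 0.55 points when 1 library was left out, and between 0.45 and 0.63 under the other settings, and lost its call without colon replicate 2 (0.50), liver replicate 1 (0.46) and pancreas replicate 1 (0.46). The difference off the assembled chromosomes lay between -0.033 and 0.47 points without 1 library and was -0.028 with the 20000 strongest peaks, -0.033 without kidney replicate 1 and -0.014 without kidney replicate 2. The log2 ratio for replicate numbers lost its call with the 20000 strongest peaks (0.35), merging within 1 kb (0.081) and nearness within 50 kb (0.050). Without 1 library it lay between 0.11 and 0.27 and lost its call without colon replicate 1 (0.11) or 2 (0.14), kidney replicate 1 (0.21) or 2 (0.22), skeletal muscle replicate 2 (0.20) and stomach replicate 1 (0.17) or 2 (0.17). Leaving out a library of H3K27ac leaves 7 tissues, where the smallest p is 0.0156; the cause of the other changes was not tested. Over 28 pairs of tissues the correlation of the differences between replicates lay between -0.011 and 0.042, with 0 over 0.1. It was taken over all merged regions, also those without a peak in either tissue. Low values therefore do not settle whether the numbers pair the samples, and the numbers were not taken to pair them. The test of nearness by number, which passed the threshold but was not stable, is another measure. The replicate block is no check of stability, since tissue values already average both numbers and all but the nearness to the partner replicate are equal by construction: the values were 1.67 and 0.14 (log2) for the distances, 18.03 and 13.5 points for nearness, and 0.29 and 0.49 points for contigs and chromosome X. For single tissues or regions 852 values were recomputed. They were counts, distances to reproducible regions, nearness to own-tissue two-replicate regions and the number of leading regions kept. Of these 791 stayed within their limits and 61 moved. The limit was a set factor for counts and the spread of the 2 libraries of a tissue for the others. Of the distance and nearness values 0 changed direction, which counts cannot do. Single-tissue values for H3K4me3 distance, chromosome X and contigs were not among them. Depth is unknown, and within each tissue the longer list held more one-library regions.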

Other observations

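Among the 28175 regions without H3K4me3 that had a peak in exactly 2 libraries, the pairs from different tissues were uneven. The highest count was 339 regions, for liver replicate 1 with spleen replicate 2, followed by 293 for pancreas replicate 1 with spleen replicate 1, 197 for liver replicate 2 with pancreas replicate 2, 189 for heart replicate 1 with spleen replicate 1 and 186 for liver replicate 1 with spleen replicate 1. The lowest was 2. Spleen was a partner in 4 of these 5 pairs. Other pairs with spleen were low, such as 8 regions for spleen replicate 2 with stomach replicate 1. The counts were not scaled to the length of the lists, and the differences between pairs were not tested.

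The library with more one-library regions had the longer median distance to H3K4me3 in 5 of 8 tissues, and the longer median distance to reproducible regions in 5 of 8.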
